A study of Mus musculus with 2 samples.

Results

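The genes described here are the 8 genes Fas, Tnfrsf1a, Tnfrsf1b, Tnfrsf10b, Tnfsf10, Fadd, Cflar and Casp8, which encode death receptors, a ligand and the proteins that pass their signal to caspases. They were chosen by symbol, through their Entrez identifiers, and all 8 were found among the 27179 genes of the count table. Their transcripts were counted by RNA sequencing in ALL211, a primary acute lymphoblastic leukemia of mouse T cells carried in recipient mice, in cells sorted from the spleen. The leukemia carries Vav-tTA and TRE-GFP-shIkaros in both groups: the Vav promoter, active in blood-forming cells, drives a transactivator that turns on GFP and a short hairpin RNA against Ikaros, and doxycycline (Dox) shuts both off. Untreated cells (n = 1 library) were sorted by high GFP. Cells of animals given Dox for 3 days (n = 1 library), in which endogenous Ikaros can return, were sorted by intermediate GFP. ALL211 is a single primary leukemia. The series names 2 mice per condition, the labels list 1 sample per condition, and pooling and age of the animals are not stated in the sources used here.

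Death receptors are cell surface proteins of the TNF receptor superfamily whose intracellular death domain recruits adaptors when the ligand binds. Fas and the TRAIL receptor recruit FADD, which binds procaspase-8. Caspase-8 then activates itself and cleaves executioner caspases or the protein Bid, which carries the signal to mitochondria, while c-FLIP, the product of Cflar and a relative of caspase-8 without catalytic activity, holds the process in check. In T cells Fas is known for the death of activated cells, and caspase-8 also restrains necroptosis, a form of death driven by the kinases RIPK1 and RIPK3.

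The untreated library held 16960042 counts and the Dox library 16484613. Ikzf1, the gene for Ikaros, was at 120.5 and 1229 CPM (read counts relative to the scaled library total), the direction the labels give. Of 12 T-cell markers, 12 were detected in both libraries, from 133 to 3665 CPM untreated and from 176 to 3918 CPM with Dox, so the labelled cell type had its markers. Each condition had 1 library, so the differences could not be checked against replicates and carry no p-value. All intervals are exact 95% intervals of counting error alone, and reads are not independent molecules, so they may be too narrow. Treatment, sorting gate and mouse cannot be told apart, nor can fewer cells of a type be told apart from less RNA per cell.

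Fas stood apart from the other members in how far it differed, while the ligand, the TRAIL receptor and the adaptor were lower and the caspase and its inhibitor higher in the Dox library. Because Fas differed most, its promoter is shown, with that of Tnfrsf1b, whose window likewise held matches of 2 of the marked motifs. RefSeq sequences of the GRCm38.p6 build, the 250 bases before the start annotated with each sequence, were matched for 7 of the 8 genes, all but Tnfrsf10b. This start is not always the outer start of the gene. The Casp8 window (chr1:58802252-58802501) lay wholly inside the gene, which begins at 58795233, and the Fas and Cflar windows reached past the outer start of their genes. Both strands were searched for TGGGAA (the core that Ikaros binds), TTTC and TTTC with 2 bases between (the interferon element ISRE), TTCNNNGAA (the STAT element GAS), GGG and CC with 5 bases between (a loose NF-kB form) and TGTTTAC (a FOXO form). Capitals mark the matches of the Ikaros core, ISRE and GAS forms.
Fas, chr19:34290409-34290658, plus strand: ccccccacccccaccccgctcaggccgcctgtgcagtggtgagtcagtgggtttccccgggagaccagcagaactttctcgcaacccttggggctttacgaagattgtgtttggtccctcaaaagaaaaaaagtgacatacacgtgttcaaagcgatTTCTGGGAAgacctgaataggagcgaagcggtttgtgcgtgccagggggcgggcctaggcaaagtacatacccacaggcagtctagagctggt
Tnfrsf1b, chr4:145246871-145247120, minus strand: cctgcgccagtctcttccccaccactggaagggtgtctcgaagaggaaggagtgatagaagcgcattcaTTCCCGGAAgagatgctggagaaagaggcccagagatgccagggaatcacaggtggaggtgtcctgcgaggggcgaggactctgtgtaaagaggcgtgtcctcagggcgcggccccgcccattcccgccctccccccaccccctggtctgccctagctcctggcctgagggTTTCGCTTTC

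In the Fas window the Ikaros core, at -90 to -85 from the start, lay inside the GAS match at -93 to -85. Of the 7 windows, 1 held the Ikaros core (Fas), beside 21.6% of all 32851 promoters. The GAS form was in 3 windows (Fas, Tnfrsf1a and Tnfrsf1b; 7.02% of all promoters). The ISRE form was in 1, Tnfrsf1b, where it ended at the base before the start (2.98% of all), and the FOXO form in 0 (3.17% of all). The loose NF-kB form, which is common, was in the same 3 receptor windows as GAS (45.8% of all). A match describes letters only; binding was not measured here.

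The ligand gene Tnfsf10 encodes TRAIL, which induces death through TRAIL receptors. It had 1303 counts, or 76.3 CPM, untreated and 774 counts, or 47.3 CPM, with Dox. The Dox level was thus lower, at a ratio of Dox to untreated of 0.619 (interval 0.566 to 0.677). Tnfrsf10b, the mouse TRAIL receptor with a death domain, was the scarcest member, with 68 and 41 counts (3.98 and 2.50 CPM). Its ratio of 0.628 had a wide interval, 0.416 to 0.939, which still lay below 1. Ligand and receptor of the TRAIL pair were therefore both lower in the Dox library, by less than 2-fold.

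Fas, the receptor of Fas ligand, was the only member to differ by 2-fold or more. The untreated library held 214 Fas counts (12.5 CPM) and the Dox library 1174 (71.7 CPM). This was 5.72-fold higher in the Dox library (interval 4.94 to 6.65), a log2 fold of 2.50, where log2 folds carry a prior count of 2. Among the 12125 genes with at least 1 CPM in a library, its log2 fold took place 374 counted from the highest. The 3 genes with levels most like those of Fas, by distance in log2 CPM over the 2 libraries, were Acoxl (12.2 and 59.8 CPM, distance 0.26), Ampd1 (10.8 and 62.3 CPM, 0.29) and Ctla2a (12.7 and 57.3 CPM, 0.32). With 2 libraries such a likeness says only that the values are close.

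The receptors of TNF differed far less. Tnfrsf1a, the TNF receptor with a death domain, had 421 counts (24.7 CPM) untreated and 398 (24.3 CPM) with Dox. Its ratio was 0.985, and the interval of 0.857 to 1.13 included 1. Tnfrsf1b, the TNF receptor without a death domain, had 455 and 579 counts (26.7 and 35.4 CPM), a ratio of 1.33 (interval 1.17 to 1.503).

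**Figure D1:**
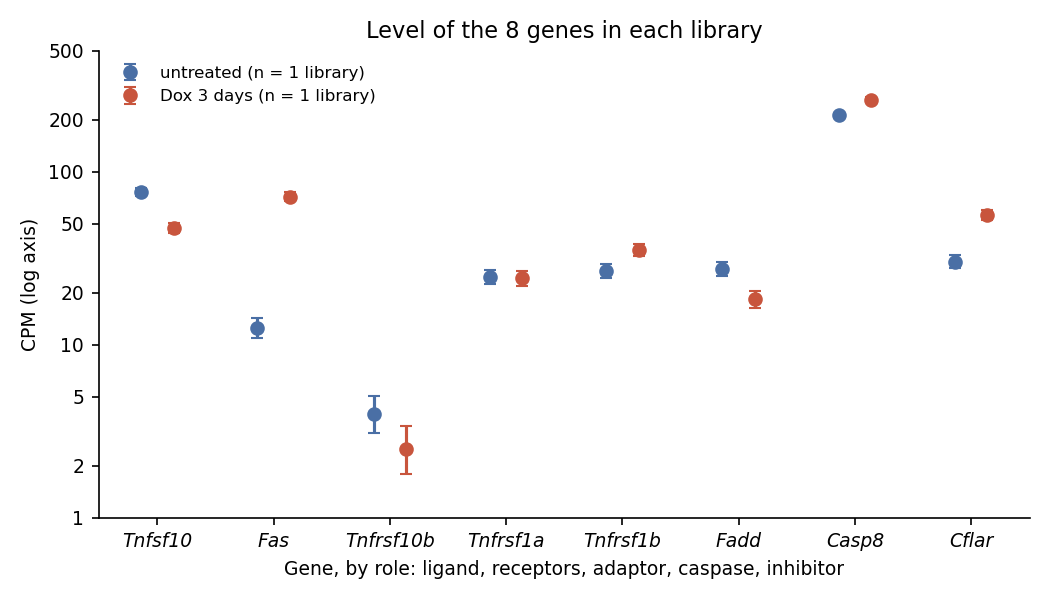
Level of each of the 8 genes in CPM (log axis) in the untreated library (blue) and the Dox library (red), 1 library each; points are the measured levels and bars exact 95% Poisson intervals of counting error only. Fas lies at 12.5 and 71.7 CPM, Casp8 is the highest in both libraries, and the Tnfrsf1a points, at 24.7 and 24.3 CPM, coincide within their bars.

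Fadd, the adaptor that links death receptors to procaspase-8, was lower in the Dox library. Its counts were 469 (27.5 CPM) untreated and 300 (18.3 CPM) with Dox, a ratio of 0.667 (interval 0.575 to 0.772). In the GENCODE annotation (release M21) 239 exon bases of Fadd are shared with Faddos, an antisense gene, and the strand setting of the counting is not stated in the sources used here, so reads of that stretch cannot be assigned with certainty. Casp8, the initiator caspase, was the most abundant member, with 3627 counts (212 CPM) untreated and 4274 (261 CPM) with Dox, a ratio of 1.23 (interval 1.18 to 1.28). Cflar, the gene of c-FLIP, had 516 counts (30.2 CPM) and 920 counts (56.2 CPM), a ratio of 1.86 (interval 1.67 to 2.07). Counts per gene do not separate the long and short forms of c-FLIP. Cflar and Casp8 lie side by side on chromosome 1, with 36.3 kilobases and no other gene of the table between them in the RefSeq annotation. Both were higher in the Dox library, Cflar more so.

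Of the 8 members, 1 was higher by 2-fold or more with Dox, where 13.6% of all genes kept were, and 0 were lower by that much, where 13.0% of all genes were. The interval lay wholly above 2-fold for 1 member, Fas (9.11% of all genes), and wholly beyond 2-fold in the lower direction for 0 (8.38% of all genes). Intervals lay wholly above 1 for 4 members (Fas, Cflar, Tnfrsf1b and Casp8; 38.7% of all genes) and wholly below 1 for 3 (Tnfsf10, Tnfrsf10b and Fadd; 40.0% of all genes). These shares are near the background. The median log2 fold was 0.14 for the members and -0.01 for all genes kept, and each of the 8 members was above 1 CPM in both libraries.

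**Figure D2:**
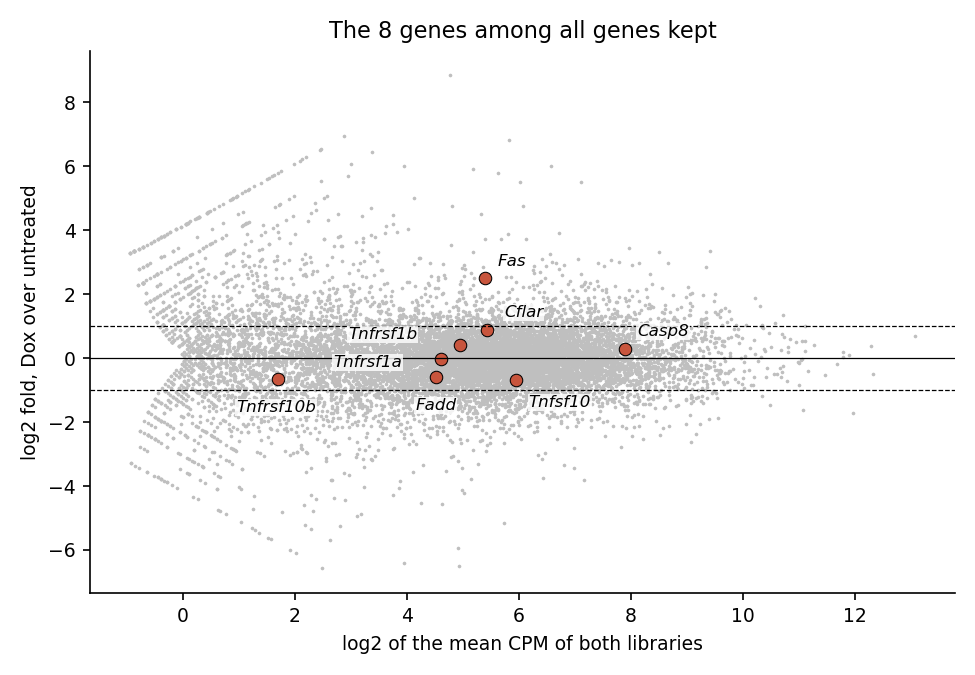
Log2 fold of Dox over untreated (prior count of 2) against the log2 of the mean CPM for the 12125 genes kept (grey) and the 8 members (red), 1 library per condition; dashed lines mark 2-fold. Fas lies at 2.50, and the other 7 members lie between the dashed lines.

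Levels of different genes were compared per kilobase of the gene length given in the table. Casp8 led in both libraries, at 76.5 CPM per kilobase untreated and 94.0 with Dox. In the untreated library it was followed by Tnfsf10 (15.4), Tnfrsf1a (11.4), Fadd (9.57), Fas (6.96), Tnfrsf1b (5.43), Cflar (3.87) and Tnfrsf10b (1.25). Only Tnfrsf1a and Fadd among these neighbours had overlapping counting intervals. The intervals do not cover the choice of length, and the order depends on it. In GENCODE the exon length is longer for Fas (2062 against 1801 bases) and shorter for Tnfrsf1b (3818 against 4913 bases). With those lengths Tnfrsf1b stands ahead of Fas in the untreated library. With Dox, Fas stood at place 2 with 39.8 CPM per kilobase, ahead of Tnfrsf1a (11.3), Tnfsf10 (9.56), Tnfrsf1b (7.20), Cflar (7.19), Fadd (6.38) and Tnfrsf10b (0.787). Tnfrsf1a and Tnfsf10 overlapped there, as did Tnfrsf1b with Cflar and Cflar with Fadd. GENCODE lengths change the Dox order too, with Tnfrsf1b ahead of Tnfsf10 and Fadd ahead of Cflar. Fas exceeded 38.0% of the genes kept in its level per kilobase when untreated and 79.4% with Dox.

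Ratios between members within a library do not depend on the scaling between libraries. Fas relative to its adaptor Fadd was 0.727 per kilobase untreated and 6.24 with Dox, 8.58-fold higher (interval 6.95 to 10.6). Fas relative to the inhibitor gene Cflar was 1.799 and 5.54, 3.08-fold higher (interval 2.56 to 3.71). Casp8 relative to Fadd was 7.995 and 14.7 (1.84-fold higher, interval 1.58 to 2.15). The inhibitor to caspase ratio, Cflar to Casp8, was 0.0506 untreated and 0.0765 with Dox, 1.51-fold higher (interval 1.34 to 1.70). Casp8 thus stayed 19.8 and 13.1 times the level of Cflar per kilobase in the untreated and Dox library. With the GENCODE exon length, which is longer for Cflar (12669 against 7814 bases), these multiples were 30.8 and 20.3; the change between libraries is the same by construction.

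The TRAIL decoy receptor genes Tnfrsf22 and Tnfrsf23, their neighbour Tnfrsf26, and Tnfrsf25 were higher in the Dox library. Of 9 genes in the list of other death and decoy receptors 5 were measured (at least 1 CPM in a library), and 5 of the 5 were higher by 2-fold or more, where 13.6% of all genes were (median log2 fold 1.94). Tnfrsf26 had 322 and 1189 counts (18.9 and 72.6 CPM, ratio 3.85) and Tnfrsf23 had 60 and 275 (3.51 and 16.8 CPM, ratio 4.78). Tnfrsf22, named after its values were seen, was at 7.73 and 17.8 CPM. Tnfrsf22 and Tnfrsf23 encode receptors that bind TRAIL without a death domain. The 3 genes form a cluster on chromosome 7 (GRCm38, 143607685 to 143686436) with no other gene of the table among them, and such related copies may share reads. The cluster was thus higher in the library in which Tnfsf10 and Tnfrsf10b were lower. Tnfrsf25, which encodes the death receptor DR3 of T cells, was at 8.61 and 20.8 CPM, and Tnfrsf21, which encodes DR6, was at 0 and 27 counts, which makes it at least 9.38-fold higher when the untreated library is set to a floor of 3 counts. It reached 1 CPM only with Dox, a filter that favours higher values. Of the 4 genes under the filter, named after their values were seen, Eda2r, a receptor of ectodysplasin, had 6 and 0 counts, Edar 1 and 0, Ngfr 0 and 4 and Tnfrsf11b 0 in both.

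Fasl, the ligand of Fas, was scarce in both libraries, with 8 and 24 counts (0.469 and 1.47 CPM, ratio 3.13, interval 1.36 to 8.05). Tnf had 140 and 95 counts (8.20 and 5.80 CPM, ratio 0.707, interval 0.539 to 0.924). Neither ligand approached the level of Tnfsf10 per kilobase, which was 15.4 untreated and 9.56 with Dox, against 0.242 and 0.757 for Fasl and 5.07 and 3.58 for Tnf.

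Adaptors and ubiquitin enzymes of the receptor complexes mostly lay within 2-fold. All 19 genes of this list were measured, 4 were higher by 2-fold or more (13.6% of all genes) and 0 lower by that much (13.0% of all genes), and the median log2 fold was 0.60, beside -0.01 over all genes. Tnfaip3, which encodes the NF-kB inhibitor A20, was at 28.1 and 78.2 CPM, Birc3, which encodes the ubiquitin ligase cIAP2, at 19.5 and 49.4 CPM, Rnf31, the catalytic subunit of the linear ubiquitin ligase, at 33.2 and 70.5 CPM, and the signalling adaptor gene Traf1 at 1.05 and 3.91 CPM. Tradd, the adaptor of TNF receptor 1, was at 44.5 and 54.4 CPM (ratio 1.22), and Ripk1 at 79.5 and 125 CPM (ratio 1.57, interval 1.47 to 1.69). Of the 19, 16 had an interval wholly above 1 (38.7% of all genes) and 0 had one wholly below 1 (40.0% of all genes).

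**Figure D3:**
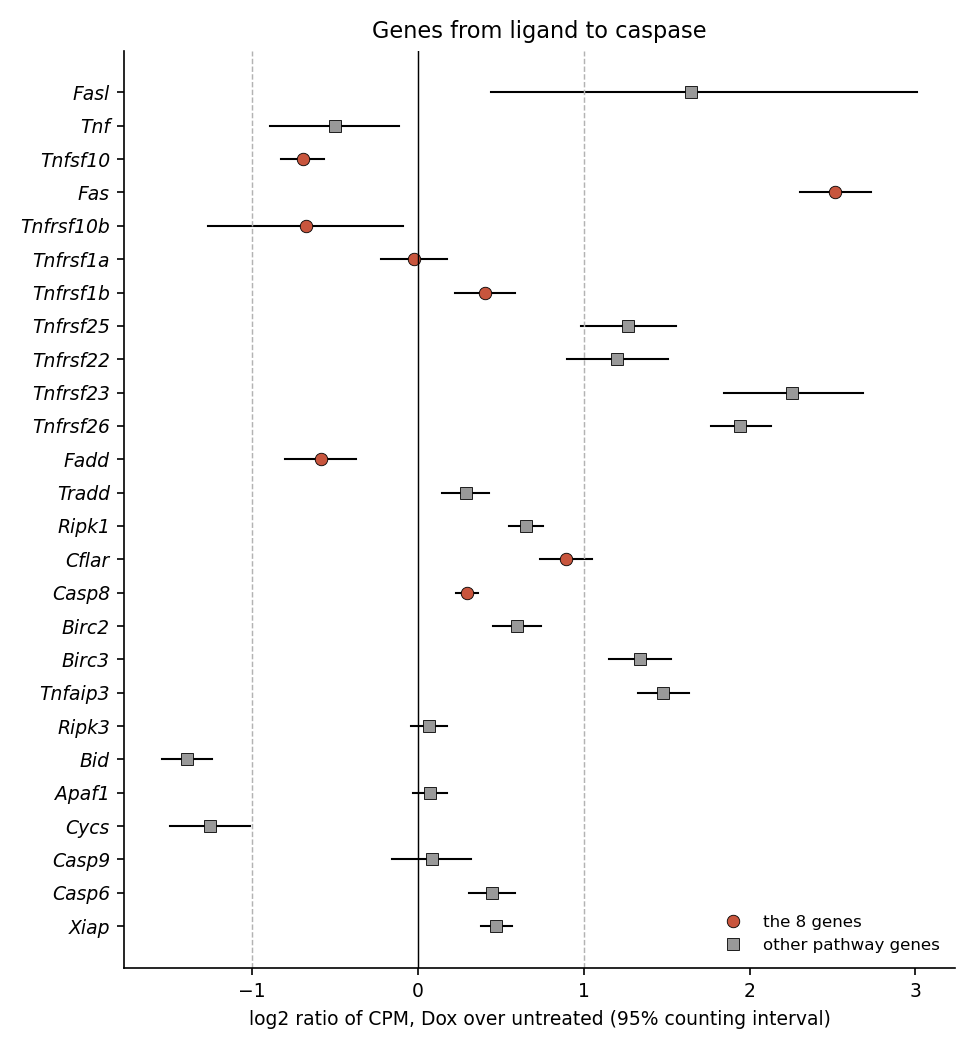
Log2 of the plain ratio of CPM, Dox over untreated (1 library each), with exact 95% counting intervals, for the 8 members (red circles) and other pathway genes (grey squares) from ligands at the top to caspases and Xiap at the bottom; dashed lines mark 2-fold. Fas and the decoy receptor genes lie to the right, Bid and Cycs to the left, and Tnfrsf1a, Ripk3, Apaf1 and Casp9 have intervals across 0.

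Downstream of caspase-8 the genes went different ways. Bid, the caspase-8 substrate that links to mitochondria, was 80.4 CPM untreated and 30.7 CPM with Dox, a ratio of 0.382 (interval 0.344 to 0.423). Of the 5 measured genes of the mitochondrial link and apoptosome, 3 were lower by 2-fold or more, where 13.0% of all genes were, and 0 higher by that much (median log2 fold -1.24). Besides Bid these were Cycs, the cytochrome c gene (28.6 and 12.03 CPM), and Htra2, a mitochondrial protease gene (24.4 and 9.46 CPM). Diablo, which encodes the inhibitor antagonist Smac, had a ratio of 0.826. Cycs has processed pseudogenes that may share its reads.

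Of 6 measured caspase genes outside the members, 1 was higher by 2-fold or more (13.6% of all genes) and 0 lower by that much (13.0% of all genes; median log2 fold 0.22). Casp2 was lower, at 137 and 97.7 CPM (ratio 0.715, interval 0.670 to 0.762), and Casp6 higher (ratio 1.36). Casp9, the initiator caspase of the apoptosome, was at 17.3 and 18.3 CPM, with an interval that included 1. The 1 gene past 2-fold was Casp1, an inflammatory caspase, with only 1 and 28 counts (ratio 29.2, interval 4.83 to 1193), which reached 1 CPM only with Dox. Of 5 genes in the list of caspase inhibitors 2 were higher by 2-fold or more (13.6% of all genes) and 0 lower by that much (13.0% of all genes). The 2 were the related copies Naip2 (2.11 and 9.04 CPM) and Naip5 (0 and 25 counts, at least 8.69-fold, above 1 CPM only with Dox). Whether Naip2 and Naip5 inhibit caspases was not tested. Xiap, an inhibitor that binds caspases directly, had a ratio of 1.39 and Birc6 1.31. Birc5 was lower, at 252 and 213 CPM (ratio 0.845, interval 0.808 to 0.884). Among 10 substrates cut during cell dismantling, 2 were lower by 2-fold or more (13.0% of all genes), Parp1, a DNA repair enzyme gene (499 and 214 CPM), and Gsdme, a gasdermin gene (5.45 and 1.22 CPM), and 0 were higher by that much (13.6% of all genes), with Rock1 at 112 and 172 CPM and Lmna at 37.9 and 56.8 CPM.

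Of the 3 necroptosis genes, Ripk3 was at 80.8 and 84.9 CPM (ratio 1.05, interval 0.975 to 1.13). Zbp1, a nucleic acid sensor gene induced by interferon, was at 41.8 and 355 CPM (ratio 8.50, interval 7.86 to 9.20). Mlkl, the gene of the final effector, had only 2 and 6 counts and fell under the level filter.

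Markers of most other cell types were higher in the Dox library too. Of 16 macrophage and monocyte markers 15 had a higher level there, and their summed level was 75.1 CPM untreated and 360 CPM with Dox, or 14.5 and 179 CPM without Itgam, the most abundant at 60.6 and 181 CPM. Mpeg1 was at 1.64 and 96.8 CPM, Cd14 had 0 untreated counts and Marco had 0 in both. Of 10 dendritic cell markers 10 were higher. Their sum was 621 and 2035 CPM, nearly all from Ccr9 and Bst2, and 1.11 and 48.5 CPM without these; Clec9a, Siglech, Zbtb46, Batf3 and Cd209a had 0 counts untreated and 0 of the list were at 0 with Dox. The sums of neutrophil markers (5.10 and 10.9 CPM, with Mpo at 0 untreated and Cxcr2 at 0 with Dox) and natural killer cell markers (0.762 and 6.35 CPM, with Prf1, Klrk1, Klra8 and Ncr1 at 0 untreated) were small. Erythroid markers summed to 8.61 and 62.2 CPM, the globin copies sharing reads, and 7 of 8 had a higher level with Dox. B-cell markers summed to 0.527 and 4.76 CPM without Ighm (346 and 948 CPM), with Pax5 at 0 in both libraries. Stromal and endothelial markers summed to 254 and 357 CPM, mostly Pecam1 and Col1a2, with Col3a1 at 0 in both. Without Pecam1 and Col1a2 the sum was lower with Dox (11.1 and 7.57 CPM), and 4 of the 8 genes had a higher level there. Of 4 measured, 2 were lower by 2-fold or more (13.0% of all genes) and 0 higher by that much (13.6% of all genes). Fas was 59.1 CPM higher in the Dox library, Casp8 48.5 CPM and Cflar 25.9 CPM. The part of these other cells in the differences of the members, which macrophages and dendritic cells can also express, was not tested.

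**Figure D4:**
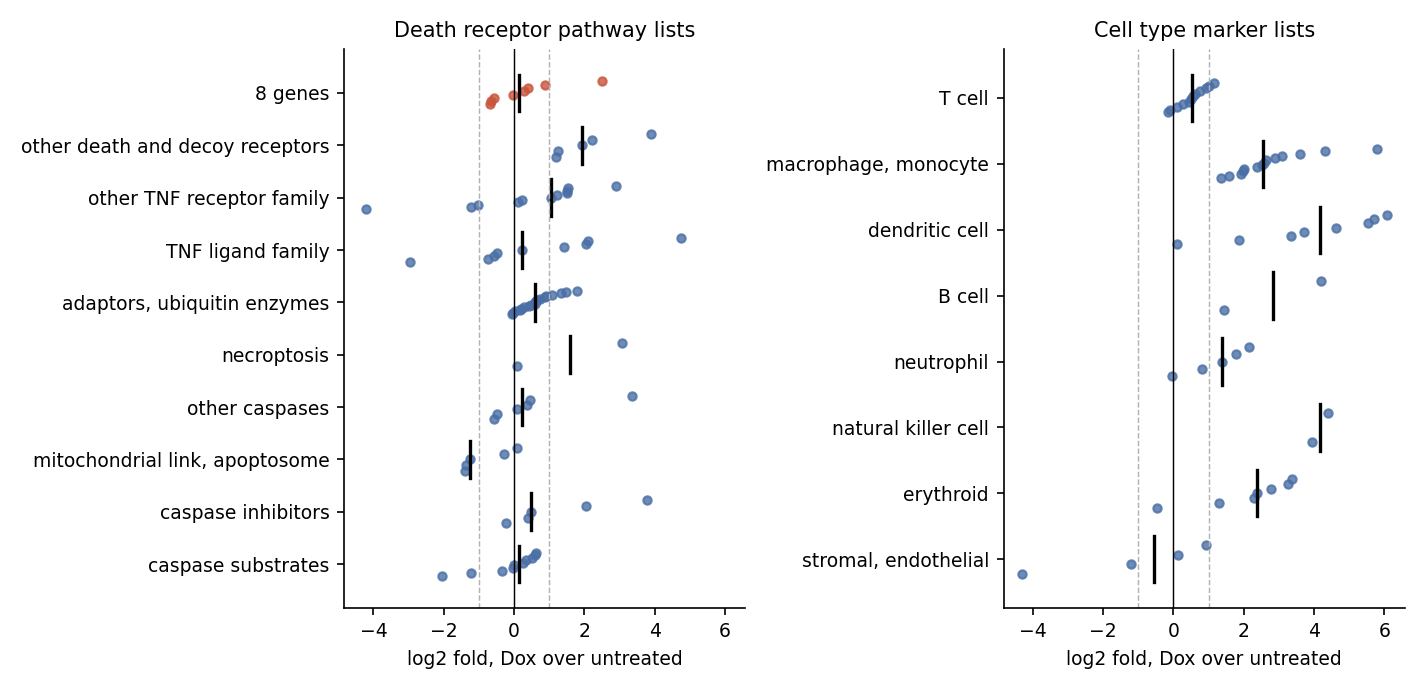
Log2 fold of Dox over untreated for each measured gene of the pathway lists (left; the 8 members in red) and of the cell type marker lists (right), 1 library per condition; black bars are list medians and dashed lines mark 2-fold. The members center on 0.14, T-cell markers on 0.52, macrophage and monocyte markers on 2.56 and dendritic cell markers on 4.18; only 6 of the 14 macrophage and monocyte genes and 2 of the 8 dendritic cell genes drawn reached 1 CPM in the untreated library, so the filter favours high values in these lists.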

How the data were processed

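Gene counts of 1 untreated and 1 Dox library were used. The authors deposited unscaled read counts for each Entrez gene, with a gene length column that the authors deposited as an annotation. CASAVA 1.8.2 and featureCounts were used with the mm10 build, per the submitters' processing notes; the aligner, annotation and strand setting are not stated in the sources used here. The separate sample tables held the same counts (0 genes differed), and 0 columns were unassigned. RefSeq (GRCm38.p6) gave 25275 of 27179 genes a symbol.

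Counts were scaled by TMM (factors 1.01 and 0.994; edgeR 4.0.16, R 4.3.3). Genes with at least 1 CPM in a library were kept (12125). Log2 folds used a prior count of 2; ratios used none, with exact Clopper-Pearson 95% intervals. Ratios of gene pairs had the exact conditional interval of the odds ratio. The floor of 3 counts was 0.176 CPM untreated and 0.183 CPM with Dox. Python 3.11.15, scipy 1.17.1 and matplotlib 3.10.9 were used. The steps were run on simulated Poisson counts with 200 changed genes, where 3225 of the 12125 genes kept passed 2-fold in the data. Such counts hold no variation between animals, so that run cannot show how the scaling or intervals perform on these data.

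The members, gene lists and naming rule were chosen with earlier results of these data known. All members were named, and of each pathway list up to 4 genes with the largest absolute log2 fold plus Fasl, Tnf, Tradd, Ripk1, Ripk3, Bid, Casp9 and Xiap; of each list of other cell types the 2 most abundant, and markers at 0. Tnfrsf22, Mlkl, Birc2, Birc5 and Apaf1 were named or drawn after their values were seen. Some genes that the rule names are not reported here. Totals of marker sums without genes of at least 50 CPM in the untreated library were likewise chosen afterwards.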

Additional observations from a re-analysis of the deposited data

How the results depend on the processing

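No paired analysis was possible because each condition had 1 library, and no library could be left out. Over 7 alternatives (scaling by total counts, upper quartile or DESeq2 1.42.0, a prior count of 0.5 or 5, and totals without 141 mitochondrial, ribosomal protein and haemoglobin genes or without 68 markers of other cell types) every member stayed inside its counting interval, Fas between 2.48 and 2.53 on the log2 scale. Tnfrsf1a, near 0, ranged from -0.04 to 0.01. At a 1.5-fold threshold 2 members were higher (Fas and Cflar) and 2 lower (Tnfsf10 and Tnfrsf10b). Of the 12125 genes kept, 2856 were higher and 2928 lower at this threshold, so the 8 members were near the share of all genes. With the interval wholly beyond 2-fold, 1016 genes were lower. Counting all genes with at least 1 count, 2993 genes were higher, as were 2 necroptosis genes and 2 other caspases, and 1 other death receptor gene was lower. Limited to at least 5 CPM, 1091 genes were higher, with 3 other TNF receptors, 2 TNF ligands, 0 other caspases and 1 gene of the caspase inhibitor list. In that setting 0 TNF ligands were lower. These settings differ by the genes they admit. The number of genes admitted is not reported here, so these counts cannot be set beside a share of all genes. With GENCODE exon lengths Cflar to Casp8 was 0.0325 and 0.0492, Fas to Fadd 0.864 and 7.41, Casp8 to Fadd 10.4 and 19.2, and Fas to Cflar 2.55 and 7.84. Depth gave Tnfrsf10b (68 and 41 counts) the widest interval relative to its ratio among the members.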

Other observations

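Receptors of the TNF superfamily without a death domain went both ways. Of 11 measured, 6 were higher by 2-fold or more with Dox and 3 lower by that much (median log2 fold 1.07; of all genes, 13.6% and 13.0%). Tnfrsf8, which encodes the lymphocyte activation antigen CD30, had 1057 counts untreated and 53 with Dox (61.9 and 3.24 CPM), a ratio of 0.0523 (interval 0.0389 to 0.0689). The costimulatory receptor gene Cd27 went the other way, from 200.2 to 582 CPM (ratio 2.90). Tnfrsf9, which encodes 4-1BB, had 6 and 20 counts, and Ltbr, the lymphotoxin receptor gene known from myeloid and stromal cells, had 1 and 20 (ratio 20.8, interval 3.33 to 864); both reached 1 CPM only with Dox.

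Among 9 measured ligand genes outside Tnfsf10, 4 were higher by 2-fold or more (13.6% of all genes) and 1 lower by that much (13.0%; median log2 fold 0.23). Of these 4, Cd40lg and Fasl reached 1 CPM only with Dox, which favours higher values. The lymphotoxin genes were higher together, Lta at 3.81 and 16.2 CPM (ratio 4.25) and Ltb at 103 and 445 CPM (ratio 4.31, interval 4.09 to 4.54). Cd40lg, the helper T-cell ligand gene, was at 0 and 51 counts, which makes it at least 17.7-fold higher with the untreated library set to 3 counts. Tnfsf9, the 4-1BB ligand gene, had 46 and 4 counts (ratio 0.0906, interval 0.0237 to 0.248).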
